A study of Mus musculus with 6 samples.

Results

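RNA of 10 genes of the oxygen-sensing pathway was followed in Hepa 1–6 cells, a mouse hepatoma line, treated with Shh or with vehicle. The genes are the HIF subunits *Hif1a*, *Epas1* and *Arnt*, the oxygen sensors *Egln1*, *Egln2* and *Egln3*, the ubiquitin ligase subunit *Vhl*, and the targets *Vegfa*, *Bnip3* and *Ndrg1*, which lie outside glycolysis. They were taken by gene symbol, and all 10 were present among the 18169 genes of the deposited table. Poly(A) RNA was sequenced from 3 vehicle and 3 Shh libraries, and the labels give no dose, duration or separate culture for a library. The spread on which each p-value rests is that of these libraries and may be technical. None of the 10 genes passed the test for a difference between Shh and vehicle, nor did any other of the 12286 genes tested. *Hif1a* and *Epas1* had the highest log2 fold changes, at 0.12 and 0.11, and *Ndrg1* and *Bnip3* the lowest, at -0.14 and -0.12.

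HIF is a pair of proteins, an alpha subunit (HIF-1α from *Hif1a* or HIF-2α from *Epas1*) and the partner ARNT. In the presence of oxygen the EGLN prolyl hydroxylases mark the alpha subunit, the VHL protein binds it, and it is ubiquitylated and degraded. HIF activity is therefore set largely at the protein level, and RNA of the alpha subunits reports only a part of it. When oxygen falls, HIF raises the RNA of targets that include its own sensors *Egln1* and *Egln3*, the angiogenic ligand gene *Vegfa*, the mitophagy receptor gene *Bnip3* and the stress gene *Ndrg1*. In liver, HIF targets are known to differ along the oxygen gradient of the lobule.

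Promoter matches to the core letters that HIF is known to read are shown for 4 of these genes. Of them, 1 encodes an alpha subunit and the others are sensors and a target. Matches in *Arnt*, *Egln1* and *Vegfa* are not shown. The core of a hypoxia response element was searched as ACGTG and GCGTG on both strands, over the 250 bases before each start in the RefSeq promoter table (GRCm38.p6). The letters CACGTG hold ACGTG on both strands and are also the E-box that MYC and the clock factors read. Among these genes, 8 had an entry in the table, with 10 windows in all. *Epas1* and *Ndrg1* had none. A core was found in 8 of these windows, against 38.6% of all 32851 windows of that length. The 8 include a further window of *Egln2* and of *Vegfa*, each at a start that lies downstream within the gene. Whether those windows act as promoters in these cells was not tested. Other HIF pathway genes had one in 11 of 16 windows, other HIF targets in 30 of 42, and VEGF, NDRG and BNIP relatives in 14 of 22. The share over all windows was not matched for GC content, which ran from 48% to 86% in the 10 windows. Capitals mark the cores, 5′ to 3′ on the strand of the gene, in *Bnip3* (chr7:138909527-138909633, minus strand), *Hif1a* (chr12:73907722-73907811, plus strand), *Egln3* (chr12:54204089-54204113, minus strand) and *Egln2* (chr7:27166822-27166963, minus strand).
Bnip3: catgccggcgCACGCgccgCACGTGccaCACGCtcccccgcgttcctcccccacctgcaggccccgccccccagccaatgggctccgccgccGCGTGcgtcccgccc
Hif1a: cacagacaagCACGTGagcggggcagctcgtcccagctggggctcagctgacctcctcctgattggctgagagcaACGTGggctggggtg
Egln3: tgcatctcagACGTGagatccaggt
Egln2: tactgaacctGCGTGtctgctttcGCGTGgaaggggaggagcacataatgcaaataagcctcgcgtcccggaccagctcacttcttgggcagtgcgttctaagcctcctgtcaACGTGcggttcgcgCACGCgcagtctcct
The *Bnip3* stretch held 5 cores, of which ACGTG on both strands came from a single CACGTG. *Hif1a* had 3 cores, again with 1 CACGTG, *Egln2* had 4 and *Egln3* had 1. No core was found in the windows of *Vhl* or of the upstream *Vegfa* start, which says only that these letters are not in those bases. A match is likewise a description of the sequence and no evidence of binding. The *Bnip3* window, with the most cores, belongs to a gene below 0 in these cells and the *Hif1a* window to a gene above 0.

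The libraries held 20253781 to 20335463 counts each. The Shh libraries were less alike than the vehicle libraries, with a chi-square per degree of freedom of 4.13 to 9.64 between pairs of Shh libraries and 1.70 to 2.33 between pairs of vehicle libraries. Shh replicate 1 was close to vehicle (2.17 to 2.67) and Shh replicate 2 far from it (9.73 to 12.2), so results are given without each where they turn on it. Longer transcripts had higher log2 fold changes, with a median of -0.090 over the 2295 shortest genes (157 to 1524 bases) and 0.070 over the 2294 longest (4503 to 24300 bases), and this trend was strongest in Shh replicate 2. Against the vehicle mean, the medians of the shortest and longest genes were -0.180 and 0.137 there, -0.0638 and 0.0594 for Shh replicate 3, and -0.0262 and 0.0109 for Shh replicate 1, and vehicle libraries lay within -0.0133 and 0.0141. The hepatocyte genes *Alb* and *Afp* stood at 1004 and 394.9 CPM with vehicle, while *Ttr* and *Apoa1* were at 0.35 and 3.23 CPM. The summed level of 12 hepatocyte markers was 5797 to 5858 CPM with vehicle and 5476 to 5803 CPM with Shh. That sum rests largely on the keratin genes *Krt18* and *Krt8*, at 2260 and 1186 CPM with vehicle. Summed levels of 7 stellate cell or fibroblast markers were 23.6 to 41.0 CPM with vehicle, 63.9 CPM in Shh replicate 1, and 20.1 and 19.5 CPM in Shh replicates 2 and 3. Those of 5 macrophage markers were 18.9 to 20.0 CPM with vehicle and 25.8, 15.7 and 15.4 CPM with Shh, and those of 5 endothelial markers were 1.34 to 2.44 and 2.92, 1.59 and 1.28 CPM. The deposited table holds no gene at 0 in every library, so that a listed marker has counts is no sign of its cell type. The macrophage marker *Clec4f* was not in the table. Shh replicate 1 was thus the highest library in all 3 lists, and their part in the results was not tested. The Hedgehog targets *Gli1*, at 2.34 CPM with vehicle and 2.39 CPM with Shh, and *Ptch1*, at 34.4 and 35.2 CPM, had log2 fold changes of 0.036 (standard error 0.18) and 0.030 (standard error 0.065). Without Shh replicate 2, both lay below 0, at -0.060 and -0.0064.

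Per transcript length, *Bnip3* was the most abundant of the 10 genes and *Epas1* the least. The deposited FPKM, in which the authors scaled counts by length and library total, allow levels of different genes to be set side by side. *Bnip3* was at 57.9 ± 3.10 FPKM (SD over 6 libraries) and *Hif1a* followed at 35.8 ± 3.09 FPKM. *Egln1* at 33.4, *Egln3* at 32.7 and *Ndrg1* at 29.9 FPKM came next, and from *Hif1a* to *Ndrg1* the ranges of neighbours overlapped. *Vegfa* at 23.4 and *Egln2* at 22.7 FPKM overlapped each other and no other gene. *Arnt* was at 18.4, *Vhl* at 12.3 and *Epas1* at 6.54 FPKM, each with a range apart from its neighbours. At 598 to 3504 counts per library, counting error alone gives a coefficient of variation of 1.79% for *Hif1a* to 3.94% for *Epas1*.

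**Figure D1:**
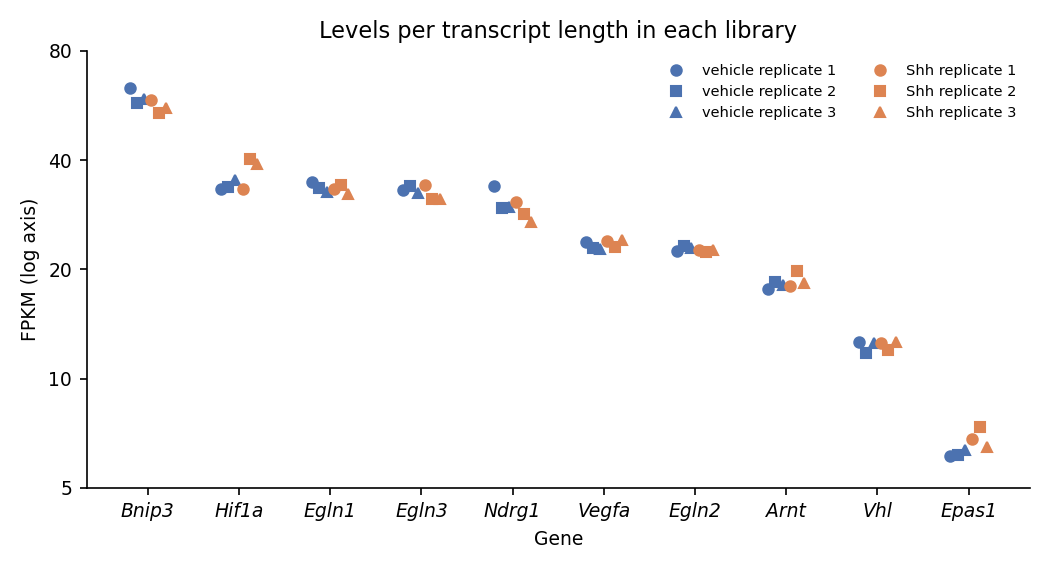
Deposited FPKM (vertical axis, log scale) of the 10 genes (horizontal axis, ordered by mean), with 1 marker per library and vehicle in blue and Shh in orange. *Bnip3* lies between 54.0 and 63.0 FPKM and *Epas1* between 6.13 and 7.35 FPKM, with all other genes between them.

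*Hif1a* (NCBI gene 15251), which encodes the broadly expressed alpha subunit, separated within the Shh group. On the scale of TMM-normalized CPM (counts scaled by the total and composition of each library), the vehicle libraries, in order of replicate number, gave 144, 145 and 152 CPM, and the Shh libraries gave 143, 169 and 167 CPM. Shh replicates 2 and 3 lay above every vehicle library, and Shh replicate 1 lay at the level of the lowest of them. Vehicle replicate 1 and Shh replicate 1 had the same count, 2895, and stood at 33.18 and 33.21 FPKM. The coefficient of variation was 8.86% with Shh and 2.98% with vehicle. The log2 fold change was 0.12 (standard error 0.059, 95% interval -0.010 to 0.24, adjusted p = 0.496 from edgeR). With an offset for transcript length it was 0.071, and without Shh replicate 2 it was 0.074. Without Shh replicate 1 it was 0.19 and passed (adjusted p = 0.0489 from edgeR, 0.0489 to 0.989 over all 16 fits), in a fit that called 1.57% of all genes. With the length offset added to that fit it was 0.13 and did not pass (adjusted p = 0.170 from edgeR). The library left out was the Shh library nearest to vehicle over all genes and the highest in stellate cell or fibroblast, macrophage and endothelial markers, whose part in this was not tested. In the annotation of GENCODE M21, 330 of the 5896 exonic bases of *Hif1a* overlap an antisense gene and 148 a gene on the same strand, and the strand setting of the counts is not given in the sources used here.

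*Epas1* (NCBI gene 13819), which encodes HIF-2α, the alpha subunit that controls erythropoietin in other cells, was the longest transcript of the group at 4859 bases. Vehicle replicates 1 to 3 gave 29.8, 30.5 and 31.2 CPM, and those of Shh gave 33.3, 34.2 and 31.1 CPM. Shh replicates 1 and 2 lay above every vehicle library, and Shh replicate 3 lay just under vehicle replicate 3. In the deposited FPKM the groups did not overlap, at 6.13, 6.14 and 6.34 with vehicle and 6.8, 7.35 and 6.46 with Shh. Its log2 fold change was 0.11 (standard error 0.056, 95% interval -0.015 to 0.23, adjusted p = 0.505 from edgeR). It belongs to the 2294 longest genes, whose median was 0.070, and with the length offset *Epas1* was at 0.053. Shh replicate 2 was the highest library for *Epas1* as for *Hif1a*, while Shh replicate 1 was high for *Epas1* and not for *Hif1a*, and Shh replicate 3 the reverse.

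Any difference in the balance of the alpha subunits was within the spread between libraries. The ratio of *Epas1* to *Hif1a* in FPKM was 0.185, 0.183 and 0.179 in the vehicle libraries and 0.205, 0.183 and 0.166 in Shh replicates 1, 2 and 3. The Shh values lie on both sides of the vehicle values, and the exact permutation test of the log2 ratio gave p = 0.80 (two-sided), where 3 libraries against 3 cannot give a p below 0.10. *Arnt* (NCBI gene 11863), the shared partner of both alpha subunits, stood at 77.3, 79.1 and 78.6 CPM with vehicle and at 78.0, 82.8 and 78.7 CPM with Shh. Shh replicate 2 was the single library above the others. The log2 fold change of *Arnt* was 0.027 (95% interval -0.068 to 0.12), at -0.019 with the length offset and -0.00028 without Shh replicate 2. The ratio of *Arnt* to the sum of *Hif1a* and *Epas1* in FPKM was 0.450 ± 0.0152 (SD, n = 3) with vehicle and 0.423 ± 0.0241 (SD, n = 3) with Shh. The difference of -0.0265 was larger than either SD, but the groups overlapped, and this ratio did not pass either (exact permutation p = 0.20, two-sided).

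*Vhl* (NCBI gene 22346), whose protein recognises the hydroxylated alpha subunit, was at 34.5, 32.2 and 34.1 CPM with vehicle and at 34.1, 31.8 and 34.0 CPM with Shh. In each group replicate 2 was the low library, and the groups overlapped. Its log2 fold change was -0.014 (standard error 0.056, 95% interval -0.14 to 0.11).

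The 3 prolyl hydroxylase genes all had a log2 fold change below 0. *Egln2* (NCBI gene 112406), which encodes PHD1, the hydroxylase that hypoxia does not induce in most cells, was the only one of the 10 genes whose groups did not overlap in TMM-normalized CPM. It stood at 44.2, 46.2 and 45.2 CPM with vehicle and at 43.8, 42.0 and 43.3 CPM with Shh. Every Shh library was thus below every vehicle library, as for 8.67% of all genes tested, so that 1 of 10 is near that background. In the deposited FPKM the *Egln2* groups overlapped, at 22.42, 23.13 and 22.85 with vehicle and 22.64, 22.26 and 22.64 with Shh. In TMM-normalized CPM no gene of the 10 had every Shh library above, which held for 6.79% of all genes. In FPKM *Epas1* did, and the share of all genes in that unit was not computed. The log2 fold change of *Egln2* was -0.071 (standard error 0.047, 95% interval -0.17 to 0.030, adjusted p = 0.583 from edgeR). *Egln1* (NCBI gene 112405), which encodes PHD2, the main oxygen sensor of most cells, stood at 123, 118 and 114 CPM with vehicle and at 116, 115 and 111 CPM with Shh. The groups overlapped at a log2 fold change of -0.048 (95% interval -0.14 to 0.046), which was -0.075 with the length offset, -0.021 without vehicle replicate 1 and -0.030 without Shh replicate 3. *Egln3* (NCBI gene 112407), which encodes the hypoxia-induced PHD3, stood at 88.0, 90.0 and 85.9 CPM with vehicle and at 90.3, 80.3 and 81.8 CPM with Shh. Shh replicates 2 and 3 lay below every vehicle library, and Shh replicate 1 lay at the level of the highest of them. Counting error alone gives a coefficient of variation of 2.39% for *Egln3*. The Shh libraries of *Hif1a* split in the same way, with the sides reversed. The log2 fold change of *Egln3* was -0.064 (standard error 0.052, 95% interval -0.18 to 0.048), at -0.12 without Shh replicate 1 and -0.032 without Shh replicate 2.

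The make-up of the sensors was nearly even between *Egln1* and *Egln3* and differed with Shh by less than its spread. Of the summed FPKM of the 3 genes, *Egln1* took 37.6 ± 0.867% (SD, n = 3) with vehicle and 37.7 ± 1.01% with Shh. *Egln3* took 37.0 ± 0.424% and 36.7 ± 1.16%. *Egln2* took 25.4 ± 0.577% and 25.6 ± 0.607%. The exact permutation tests of the shares gave p = 0.70, 0.70 and 0.80 in that order (two-sided). Over these 3 shares and both ratios above, 5 tests in all, each p was 0.80 after Benjamini-Hochberg adjustment.

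**Figure D2:**
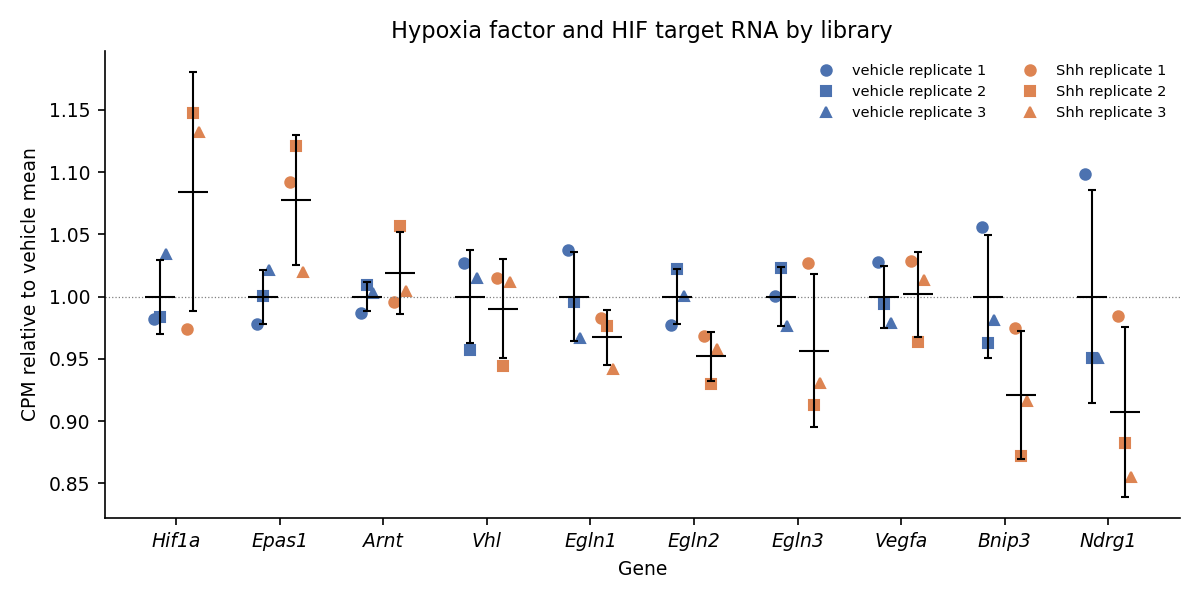
TMM-normalized CPM of each gene relative to its vehicle mean (vertical axis), gene by gene along the horizontal axis, where markers are libraries and black bars give each group's mean with its SD (n = 3). *Hif1a* in Shh replicates 2 and 3 lies above the vehicle libraries while replicate 1 lies at the level of the lowest of them. *Bnip3* and *Ndrg1* in Shh replicates 2 and 3 lie below all vehicle libraries.

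None of the targets passed the test, and they did not lie on 1 side of 0. *Bnip3* (NCBI gene 12176), whose protein marks mitochondria for removal, stood at 109, 99.3 and 101 CPM with vehicle and at 101, 89.9 and 94.5 CPM with Shh. Shh replicates 2 and 3 lay below every vehicle library, and Shh replicate 1 lay among them. Its log2 fold change was -0.12 (standard error 0.053, 95% interval -0.23 to -0.0036, adjusted p = 0.477 from edgeR). It was at -0.083 with the length offset, -0.081 without Shh replicate 2, -0.078 without vehicle replicate 1 and -0.16 without Shh replicate 1. An antisense gene shares 504 of its 2265 exonic bases in the annotation. *Ndrg1* (NCBI gene 17988), an iron- and hypoxia-responsive stress gene, stood at 97.9, 84.7 and 84.7 CPM with vehicle and at 87.7, 78.6 and 76.2 CPM with Shh. Vehicle replicate 1 was the highest library, and Shh replicates 2 and 3 were the lowest. The log2 fold change was -0.14 (standard error 0.067, 95% interval -0.29 to 0.0055, adjusted p = 0.486 from edgeR). Without vehicle replicate 1 it was -0.068, and without Shh replicate 1 it was -0.20. The length offset left *Ndrg1* at -0.15, its transcript of 2841 bases being near the median of 2690. Antisense genes share 419 and 137 of its 6596 exonic bases. *Vegfa* (NCBI gene 22339), the ligand that draws new vessels, stood at 80.5, 77.9 and 76.7 CPM with vehicle and at 80.6, 75.5 and 79.4 CPM with Shh. The groups lay on top of each other, and the log2 fold change was 0.0024 (standard error 0.046, 95% interval -0.097 to 0.10).

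Over the 10 genes, all of which passed the expression filter, 4 had a log2 fold change above 0 and 6 below. The median was -0.031, against 0.0028 over the 12286 genes tested. None of the 10 was called at an adjusted p under 0.05 by edgeR, as for 0% of all genes tested, or by DESeq2. At an unadjusted p under 0.05, DESeq2 gave 0 of the 10 and 814 of the 12286 genes. At that threshold edgeR gave 1 of the 10 (*Bnip3*) and 10.4% of all genes, so the edgeR count was that of the background. Without Shh replicate 1 the count was 4 of the 10 (*Hif1a* above 0; *Egln3*, *Bnip3* and *Ndrg1* below) where 21.1% of all genes passed, and with the length offset as well it was 5 of the 10 where 12.3% passed, *Egln1* being added below 0. With the length offset, 2 of the 10 lay above 0, with *Arnt* and *Vegfa* on the other side of 0. In the fit on all 6 libraries the 95% intervals together ran from -0.29 to 0.24. Larger differences on the log2 scale lay outside the interval of every one of these genes in that fit only. Without Shh replicate 1 the interval of *Hif1a* ran from 0.096 to 0.28. In bulk RNA, fewer cells with a transcript and less of it per cell cannot be told apart.

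**Figure D3:**
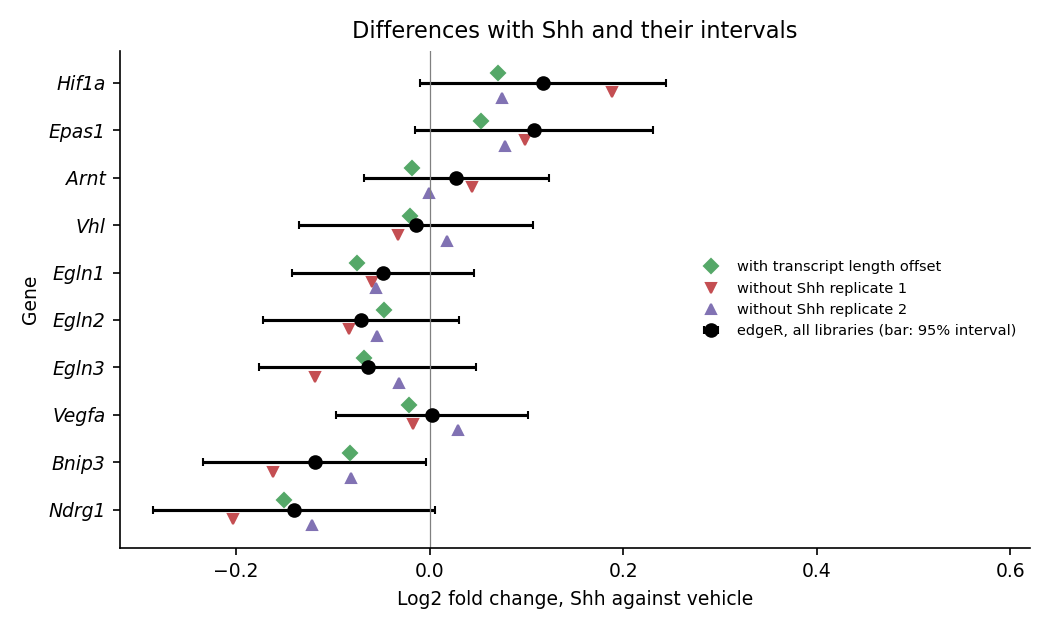
Log2 fold change of Shh against vehicle (horizontal axis) by gene (vertical axis), with the 95% interval of the edgeR fit in black and the values with a transcript length offset and on leaving out either Shh replicate 1 or 2 in color. All intervals but that of *Bnip3* (-0.23 to -0.0036) include 0, and *Arnt* and *Vegfa* lie below 0 with the length offset.

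Other genes that act on HIF were mostly expressed and did not pass the test. Of 22 listed, 20 passed the filter, and their log2 fold changes (11 positive, 9 negative) had a median of 0.0023. *Hif3a*, which encodes the remaining alpha subunit, had 0 to 5 counts per library and was not tested. *Arnt2*, a paralog of *Arnt*, stood at 12.4 CPM with vehicle and 13.1 CPM with Shh (log2 fold change 0.080, standard error 0.079), and at 0.021 without Shh replicate 2. *Hif1an*, the asparaginyl hydroxylase that blocks the alpha subunits from their co-activators, stood at 64.0 and 65.2 CPM (0.027, standard error 0.046). By edgeR and by DESeq2 0 were called, as over all genes tested. At an unadjusted p under 0.05, edgeR gave 6 of the 20, 2 above 0 and 4 below, against 4.83% of all genes above and 5.56% below. DESeq2 gave 4 of the 20, where 814 of the 12286 genes passed. With the length offset the edgeR count was 2, where 6.08% of all genes passed.

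The 4 genes with the smallest p among them were *Rbx1*, *Rack1*, *Elob* and *Ep300*. *Rbx1*, the RING subunit of the VHL ligase and of other cullin ligases, stood at 119, 110 and 121 CPM with vehicle and at 105, 90.4 and 102 CPM with Shh, with no overlap. Its log2 fold change was -0.23 (standard error 0.059, adjusted p = 0.469 from edgeR), at -0.19 with the length offset and at -0.17 without Shh replicate 2. It passed with Shh replicate 1, the library highest in stellate cell or fibroblast markers, left out (-0.28, adjusted p = 0.0462 from edgeR). That fit called 1.57% of all genes, and with the length offset added *Rbx1* did not pass (-0.21, adjusted p = 0.120 from edgeR). *Elob*, the elongin B subunit of the same ligase, has a transcript of 459 bases, and its -0.15 became -0.027 with the length offset and -0.070 without Shh replicate 2. *Rack1*, a ribosome-bound scaffold that also binds HIF-1α, was at -0.11, at -0.045 with that offset and at -0.069 without that library. *Ep300*, the acetyltransferase co-activator of HIF, has a transcript of 8603 bases, and its 0.12 became 0.036 and 0.060 in the same fits.

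HIF targets outside the 10 and outside glycolysis lay more often below 0 than above. Of 43 listed, 42 were in the table and 32 passed the filter, with 25 below 0, 7 above, and a median of -0.044. Over all 12286 genes, 48.8% lay below 0 and the median was 0.0028. Their median was -0.046 with the length offset, over 30 genes, and -0.020 without Shh replicate 2. By edgeR and by DESeq2 0 were called, as over all genes tested. At an unadjusted p under 0.05, edgeR gave 6 of the 32, all below 0, against 5.56% of all genes below 0 and 10.4% in either direction. DESeq2 gave 4 of the 32, where 814 of the 12286 genes passed. The edgeR count was 1 of 34 without vehicle replicate 1 (4.89% of all genes), 2 of 33 without Shh replicate 2 (6.2%) and 9 of 32 without Shh replicate 1 (21.1%). With the length offset it was 4 of 30, all below 0 (6.08%), and 2 of 30 on dropping Shh replicate 2 as well (486 of 11517 genes). *Epo* had at most 1 count in a library and was not tested.

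*Ccng2*, a cyclin G gene that slows the cell cycle, stood at 15.8, 14.4 and 16.0 CPM with vehicle and at 12.8, 11.8 and 12.1 CPM with Shh. All Shh libraries were below all vehicle libraries, at -0.34 on the log2 scale (standard error 0.074, adjusted p = 0.469 from edgeR), which was -0.33 with the length offset and -0.31 without Shh replicate 2. It passed on leaving out that same library, Shh replicate 1 (-0.37, adjusted p = 0.0486 from edgeR), in the fit that called 1.57% of all genes. With the length offset added to that fit *Ccng2* did not pass (-0.36, adjusted p = 0.120 from edgeR). *Mxi1*, which encodes an antagonist of MYC, averaged 27.3 CPM (SD 0.997, n = 3) in vehicle libraries and 24.9 CPM (SD 0.854, n = 3) in Shh libraries, at -0.13 (standard error 0.058) and -0.14 with the length offset. *Ankrd37* stood at 4.14, 3.39 and 3.12 CPM with vehicle and at 2.82, 1.83 and 3.04 CPM with Shh, from 38 to 83 counts per library, and its log2 fold change of -0.47 had a standard error of 0.21 and was -0.27 without Shh replicate 2. *Mif*, which encodes a cytokine and has a transcript of 532 bases, was at -0.095 and at 0.029 with the length offset, so its direction turned. *Bnip3l*, which encodes the mitophagy receptor NIX, was at 78.0 CPM with vehicle and 76.7 CPM with Shh, a log2 fold change of -0.025 (standard error 0.046) beside the -0.12 of *Bnip3*.

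**Figure D4:**
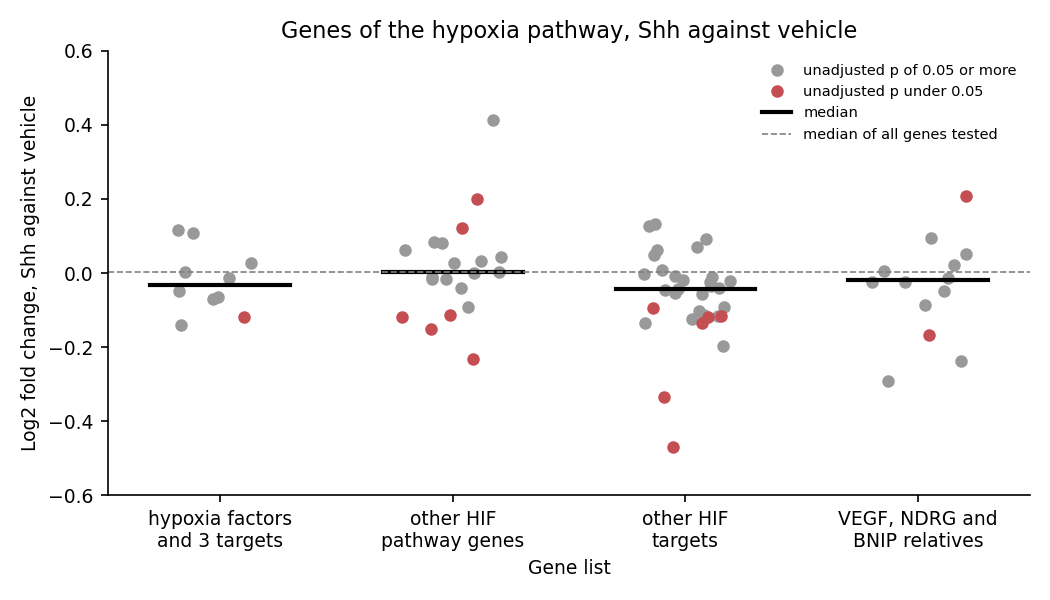
Log2 fold changes, Shh over vehicle, on the vertical axis for the tested genes of 4 lists (horizontal axis), with 1 point per gene, red where the unadjusted edgeR p is under 0.05, the list median in black and the median of all genes tested dashed. The medians are -0.031, 0.0023, -0.044 and -0.019 from left to right, and 1 gene lies outside the axis.

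The relatives of the 3 targets lay on both sides of 0. Of 16 VEGF, VEGF receptor, NDRG and BNIP genes listed, 14 were tested, 6 above 0 and 8 below, with a median of -0.019. As over all genes tested, 0 were called by edgeR and by DESeq2. At an unadjusted p under 0.05, edgeR gave 2 of the 14, *Nrp1* above 0 and *Ndrg2* below, a count near the 10.4% of all genes. DESeq2 gave 1 of the 14, where 814 of the 12286 genes passed. *Nrp1*, a co-receptor of VEGF, stood at 11.9, 10.6 and 12.2 CPM with vehicle and at 13.1, 13.5 and 13.4 CPM with Shh, without overlap (0.21, standard error 0.077, adjusted p = 0.469 from edgeR). It was at 0.14 with the length offset. *Nrp2*, its paralog, was at 0.094 (standard error 0.065) and at 0.025 with that offset, 0.058 without vehicle replicate 3 and 0.062 without Shh replicate 2. *Ndrg2*, a paralog of *Ndrg1*, stood at 47.5, 48.3 and 52.0 CPM with vehicle and at 44.6, 43.3 and 43.8 CPM with Shh, also without overlap (-0.17, standard error 0.050, adjusted p = 0.469 from edgeR). *Ndrg4* had 4 to 31 counts per library, and its 0.76 (standard error 0.59) rested on Shh replicate 1, without which it was -0.34.

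The genes most like *Hif1a* over the 6 libraries were picked by the root mean square difference of log2 CPM, each gene centred on its own mean, among 9617 genes of at least 5 CPM. They were *Arfgef1* (0.0067), *Trim37* (0.010) and *Aff4* (0.011), against a median of 0.12 over all genes compared. Their transcripts of 6993, 4702 and 9720 bases are longer than that of *Hif1a*, at 4294. For *Epas1*, at 4859 bases, they were *Zfp462* (0.014), *Pip4k2b* (0.015) and *Igsf11* (0.018), with transcripts of 10691, 5008 and 3365 bases. *Vegfa* was nearest to *Khdrbs3*, *Bcl2l13* and *Dvl2*, each at 0.011, which like it were nearly flat over the libraries, with log2 fold changes from -0.0042 to 0.019. Their transcripts had 1846, 6879 and 2920 bases. All these neighbours were picked for likeness in these same libraries, so they are a description, and the part of transcript length was not tested.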

How the data were processed

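RNA of Hepa 1–6 cells was sequenced by the authors as single-end reads on the BGIseq500 platform. Per gene, the deposited table holds the authors' estimated counts (36.4% of non-zero values were fractional) and their FPKM, which divide those by length and depth. The submitters' processing notes name Bowtie2 without its version. For the counting tool, strand setting, build and gene models, the sources used here give nothing. The series' design text speaks of liver exosomes, and the sample labels, which name the cell line, were followed. A further 6 per-sample columns were not used.

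Counts were rounded and fitted over all genes in R 4.3.3 with edgeR 4.0.16 (TMM, filterByExpr at 10 counts and a total of 15, quasi-likelihood test with the group alone in the model, Benjamini-Hochberg adjustment at 0.05). FPKM were used for levels between genes and, where at least 0.5, to recover the length behind the counts. The offset for transcript length was a natural spline over log length with 5 df, fitted in each library. The fit was repeated with DESeq2 1.42.0, with upper-quartile factors, without the filter, with a floor of 5 CPM in 3 or more libraries, with a replicate block, with the length offset, alone or with the block or without Shh replicate 1 or 2, and without each library in turn. The ratio of *Arnt* to the alpha subunits and the count of genes above 0 were chosen after seeing the data. The procedure was tested on simulated data. The genes and lists were chosen with earlier results of these data known. Named genes were the 10 genes, up to 4 of each other list with the smallest p, genes named for their role (*Hif3a*, *Arnt2*, *Hif1an*, *Bnip3l*, *Gli1*, *Ptch1*) and the 3 nearest genes to *Hif1a*, *Epas1* and *Vegfa*. *Epo* and the hepatocyte genes were named after their values were seen. Intervals cover the spread between libraries.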

Additional observations from a re-analysis of the deposited data

How the results depend on the processing

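Among the 10 genes, 0 were called in each of the 16 fits except that without Shh replicate 1 (0 to 1 on leaving out a library). At an unadjusted edgeR p under 0.05 there was 1, where 10.4% of all genes passed. Counts called among other HIF pathway genes, other targets and relatives were likewise 0 with that exception, at 0 to 1, 0 to 1 and 0 to 0 on leaving out a library, and were 6, 6 and 2 at an unadjusted p. The median of the 10 genes stayed within its spread between libraries (SD 0.024) in every fit, from -0.047 to -0.0078. *Epas1*, *Egln1*, *Egln2*, *Egln3*, *Bnip3*, *Ndrg1* and *Hif1a* kept their direction in all fits. Libraries of the same number did not deviate together (r = -0.040, -0.054 and 0.098 over genes), so no pairing was assumed. With the number as a block, 0 of the 10 genes were called and their median was -0.031 as without it. At an unadjusted edgeR p under 0.05 the block gave 3 of the 10 and 1363 of all 12286 genes, against 1 and 1277 without it. Without the block, the count was 4 on dropping Shh replicate 1 (21.1% of all genes), or 5 if the length offset is added (12.3%).

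Results that passed in no fit changed sign as follows. With the length offset, alone, then with the block, then on dropping Shh replicate 1, then on dropping Shh replicate 2, *Arnt* was at -0.0186, -0.0187, -0.0175 and -0.0240 and *Hif1an* at -0.0429, -0.0430, -0.0516 and -0.0148. *Ptch1* was at -0.0480, -0.0458, -0.0520 and -0.0463. In the first 3 of these, *Vegfa* was at -0.0214, -0.0216 and -0.0434 and *Mif* at 0.0289, 0.0271 and 0.0314. With the offset and no Shh replicate 2, *Vhl* was at 0.0095, *Arnt2* at -0.0138 and *Gli1* at -0.0778, and with it and no Shh replicate 1 *Ndrg4* was at -0.349. On leaving out a library alone, *Arnt* ran from -0.00028 to 0.0437, *Vhl* from -0.0452 to 0.0183, *Vegfa* from -0.0173 to 0.0296, *Gli1* from -0.0599 to 0.104, *Ptch1* from -0.0328 to 0.0725 and *Ndrg4* from -0.336 to 1.21. With the length offset 2 of the 10 genes lay above 0, against 4, also with the block or without Shh replicate 1, and 3 to 5 did on leaving out a library. No setting or left-out library moved a ratio or share difference by more than its spread between libraries. *Ankrd37*, *Gli1* and *Ndrg4* were under the floor of 5 CPM and have no value there.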
